A study of Mus musculus with 6 samples.

Results

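Transfer RNA (tRNA) genes are short genes, scattered and clustered over the genome, whose RNAs carry amino acids to the ribosome. The members here were all genes of biotype tRNA on chromosomes 1 to 19, X and Y in the RefSeq table of GRCm38 (mm10), each taken with 1 kb on either side: 408 of the 49943 genes in that table. The peaks that belong to them are those whose summit, the base of highest enrichment, fell in such a region. Members were listed by annotation alone, without use of the peaks, though the class was chosen with earlier results of these data known.

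DNA ends were mapped by BrITL, in which ends in permeabilised cells are labelled with a biotinylated nucleotide, pulled down on streptavidin beads and sequenced. All 6 samples were passage-immortalised mouse embryonic fibroblasts of genotype ATR+/- that expressed Bcl-xL, a survival protein, so the vehicle cells too were heterozygous for Atr. Vehicle cells had DMSO for 18 h, and treated cells had 1 µM ATR-45, which inhibits ATR, a kinase of the replication checkpoint, together with 0.2 µM of the DNA polymerase inhibitor aphidicolin for 18 h. For either condition the authors pooled 2 pull-downs and 1 input into 1 peak list, of 6444 peaks for DMSO and 491 for treated cells. The lists hold no value per sample, so no value below has a replicate error and no test between conditions was made. They hold no expression either, so the fibroblast label was not checked against marker genes.

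tRNA genes are transcribed by RNA polymerase III. The general factor TFIIIC recognises a pair of sequence elements inside the gene, the A box and the B box, and brings TFIIIB and the polymerase to the start. Active tRNA genes are among the most heavily transcribed sites of a cell, and in budding yeast they are known to slow replication forks. Names of 403 of the 408 genes follow the pattern of n-TRtcg5. In it R is the letter of the amino acid (arginine), tcg the anticodon, and 5 the number of the copy.

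Sequence was at hand for 5 of the 408 genes, those that lie whole within a RefSeq promoter window (4 genes) or a RefSeq microRNA hairpin (1 gene) of the build GRCm38.p6. They are shown because they let the internal promoter be seen in a gene beside a summit and in genes far from any. Capitals mark the A box, searched as TNGNNNANNGG or TNGNNNANNNGG, and the B box, searched as GTTCNANNC, 5′ to 3′ along the tRNA. The gene table gives no strand, so the strand that held both boxes was taken as that of the gene. n-TRtcg5 (chr7:79466419-79466491, plus strand) had a DMSO summit 20 bp from its edge, and the others had their nearest DMSO summit 13.6 kb away or farther. The others are n-TAagc16 (chr13:21222586-21222657, plus strand), n-TVcac9 (chr13:23446142-23446214, minus strand), n-TTagt9 (chr7:35234770-35234843, minus strand) and n-TItat14 (chr13:21896938-21897031, minus strand), which is given as RNA and is longer than the rest.
n-TRtcg5: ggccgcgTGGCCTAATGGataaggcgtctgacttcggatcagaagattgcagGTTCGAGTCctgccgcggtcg
n-TAagc16: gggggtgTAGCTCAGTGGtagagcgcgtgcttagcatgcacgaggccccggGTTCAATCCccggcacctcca
n-TVcac9: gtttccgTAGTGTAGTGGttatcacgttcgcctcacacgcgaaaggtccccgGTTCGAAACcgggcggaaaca
n-TTagt9: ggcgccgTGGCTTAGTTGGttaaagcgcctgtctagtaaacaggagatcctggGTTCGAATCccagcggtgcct
n-TItat14: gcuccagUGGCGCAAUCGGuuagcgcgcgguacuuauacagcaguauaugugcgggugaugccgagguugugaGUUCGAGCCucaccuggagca

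All 5 genes held both boxes on 1 strand only, with the A box starting at base 8. The strand was itself chosen by the boxes, which belong to the internal promoter of tRNA genes in general. Only n-TRtcg5 had a summit nearby, so the letters give no comparison of genes with and without a summit. Of the 32851 promoter windows of 300 bp in the RefSeq table, 1.05% held an A box followed by a B box 20 to 100 bp on along either strand, and 9.32% held the B box letters alone. The matches are descriptions of sequence and not of factor binding.

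n-TRtcg5 shows how close an end-rich site could lie to a tRNA gene and to a start of transcription at the same time. The window of an annotated start of Polg, the gene of the mitochondrial DNA polymerase, spans chr7:79466224-79466523 on the minus strand. It is printed 5′ to 3′ along Polg, with n-TRtcg5, which runs on the opposite strand, in capitals at bases 33 to 105. The DMSO summit lay at base 125.
Polg window: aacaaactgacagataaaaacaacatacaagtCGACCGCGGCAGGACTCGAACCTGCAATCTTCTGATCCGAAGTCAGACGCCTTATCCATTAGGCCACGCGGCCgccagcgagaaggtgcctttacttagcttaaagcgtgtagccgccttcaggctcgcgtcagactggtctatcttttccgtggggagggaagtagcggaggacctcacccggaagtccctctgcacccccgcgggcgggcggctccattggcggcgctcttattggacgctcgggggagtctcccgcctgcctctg

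In vehicle cells, a sizeable minority of tRNA genes had a peak of DNA ends beside them. Of the 408 genes, 88 (21.6%, exact Clopper-Pearson interval 17.7 to 25.9%) had a DMSO summit in the gene or within 1 kb, and 320 had none. The share over all RefSeq genes under the same rule was 12.9%, although most of those genes are far longer and so offer more room for a summit. Among other short non-coding genes it was 3.44% (123 of 3572, interval 2.87 to 4.09%), made up of 2.39% of small nucleolar RNA (snoRNA) genes, 4.07% of microRNA (miRNA) genes and 4.08% of small nuclear RNA (snRNA) genes. The 88 genes shared 55 peaks, since neighbouring tRNA genes often lay under the same peak. Intervals cover counting error only and treat genes as independent, so they are too narrow where genes share a peak.

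The summits were densest in the first 100 bp beside the tRNA gene, and their density stayed above the genome value throughout the flank. Of the 55 summits, 3 lay within a tRNA gene, 31 within 200 bp of its edge (these 3 included) and 45 within 500 bp. Their density was 2.46 summits per 10 kb in the first 100 bp beside a tRNA gene (20 summits) and 1.04 from 101 to 200 bp (8 summits). It was 0.567 from 201 to 300 bp, 1.06 from 301 to 400 bp (7 summits) and 0.477 from 401 to 500 bp. In the rest of the flank it was 0.337 from 501 to 750 bp and 0.362 from 751 to 1000 bp. Just outside, from 1001 to 1500 bp, it was 0.115 (3 summits). Over the whole genome it was 0.0237 per 10 kb. Within the genes themselves, which cover 30422 bases in all, it was 0.986 per 10 kb. From 2001 to 5000 bp the density was 0.0862 per 10 kb and from 20001 to 50000 bp 0.0639 per 10 kb, still above the genome value.

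**Figure D1:**
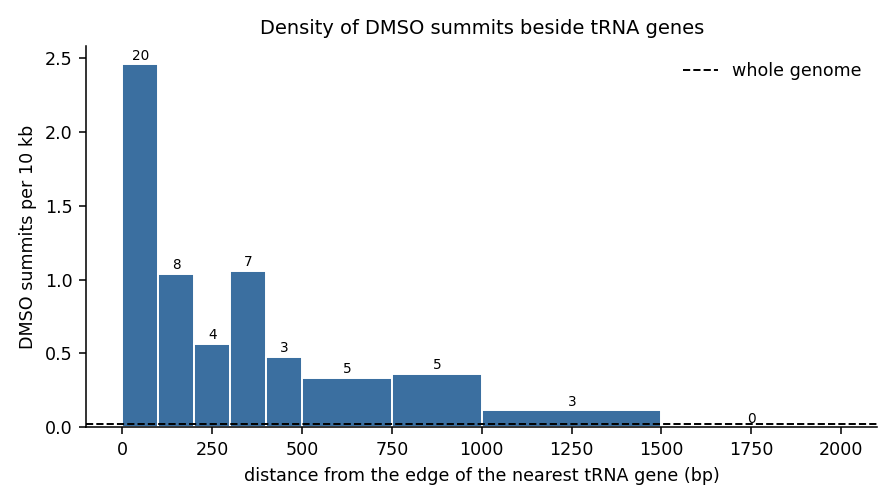
DMSO summits per 10 kb of sequence (vertical axis) by distance in bp from the edge of the nearest tRNA gene (horizontal axis), with the number of summits above each bar and the whole-genome density as a dashed line. The bar for the first 100 bp stands at 2.46 per 10 kb and holds 20 summits, and no summit lay from 1501 to 2000 bp.

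Windows of the same length moved aside along the chromosome held few summits. With windows moved by 5 kb and any window that reached another tRNA gene left out, 4 of 329 (1.22%) on the lower side and 12 of 334 (3.59%) on the upper side held a DMSO summit. At 10, 20, 50 and 100 kb the share ran from 0.875% to 4.18%. Every moved share thus lay below the 21.6% at the genes themselves. No interval of a moved share reached 17.7%, though these intervals too treat windows as independent.

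**Figure D2:**
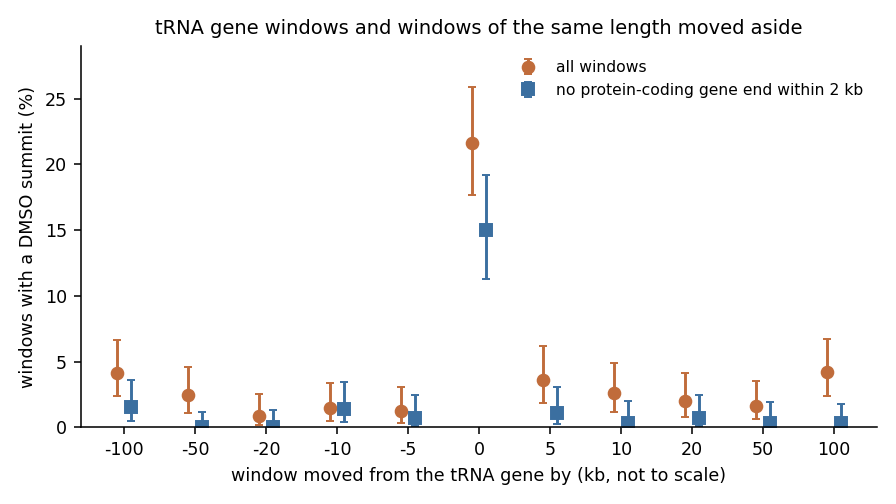
Percentage of windows with a DMSO summit (vertical axis) against the distance in kb by which the windows were moved from the tRNA gene (horizontal axis, not to scale), with exact 95% intervals; 0 marks the tRNA genes. The share is 21.6% at the genes (15% for windows with no protein-coding gene end within 2 kb) and at most 4.18% in moved windows.

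Many tRNA genes lie beside protein-coding genes, whose ends hold many DMSO summits, so the genes were split by that distance. Of 67 tRNA genes with an end of a protein-coding gene within 2 kb, 37 (55.2%, interval 42.6 to 67.4%) had a DMSO summit within 1 kb. Of 341 without such an end, 51 did (15%, interval 11.3 to 19.2%). Under the same split, other short genes gave 14.4% near a coding end (69 of 479, interval 11.4 to 17.9%) and 1.75% away from one (54 of 3093, interval 1.31 to 2.27%). The tRNA share was the higher within each class, and these intervals did not overlap. All intervals of this split treat genes as independent, while the 51 tRNA genes shared 27 peaks, so those of the tRNA genes are too narrow. Gene ends in the table miss alternative starts, as at Polg. With every start in the RefSeq promoter table counted as well, 43 of 307 tRNA genes with no end or start within 2 kb had a summit (14.0%, interval 10.3 to 18.4%), against 37 of 2982 other short genes (1.24%, interval 0.875 to 1.71%).

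**Figure D3:**
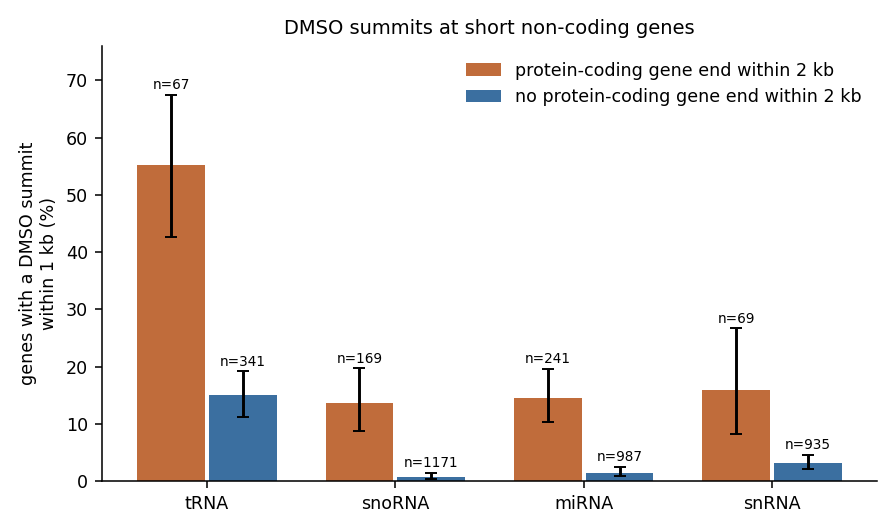
Percentage of genes with a DMSO summit in the gene or within 1 kb (vertical axis) for 4 classes of short non-coding gene, split by whether a protein-coding gene end lay within 2 kb, with exact 95% intervals and the number of genes above each bar. tRNA genes stand at 55.2% and 15%, and the other classes at no more than 15.9% and 3.21%.

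Seen from the peaks, the summit was nearer to a tRNA gene than to any end of a protein-coding gene in 43 of 55 cases and nearer to the coding end in 12. In 25 the coding end was within 1 kb of the summit, and in 30 it was farther off. Summits were picked for lying within 1 kb of a tRNA gene, so in those 30 the tRNA gene was nearer by the rule. Only the 25 could go either way, and in 12 of them the coding end was nearer. Of the 30, 20 had the summit within 200 bp of the tRNA gene. Among the same 30, 6 lay within 1 kb of an end of a long non-coding RNA gene, and 5 lay within 1 kb of a start in the RefSeq promoter table. tRNA transcription, promoters and open chromatin were not measured in these cells, and their part in the result was not tested.

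In median strength and width the 55 peaks were close to the whole DMSO list, but strong peaks were fewer among them. The authors' fold enrichment, a ratio of pull-down to background at the summit, had a median of 11.23 (range 7.55 to 21.2), beside 10.99 over all 6444 peaks. The median width was 2913 bp, beside 2855 bp. The pull-down fragments recovered from the caller's values numbered 35 to 87 at the summit, with a median of 47, beside 49 for the whole list. The upper quartiles were lower, at 11.96 beside 13.42 for fold and 53 beside 63 for fragments. Only 2 of the 55 were among the upper 10% of folds in the list, which began at 16.3. The caller's background at the summit, recovered in the same way, was at its floor of 2.32 fragments in 72.7% of them. The share was 69.3% in the whole list. A value at this floor does not give the input coverage itself. In 4 the background was at least 2 times the floor.

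**Figure D4:**
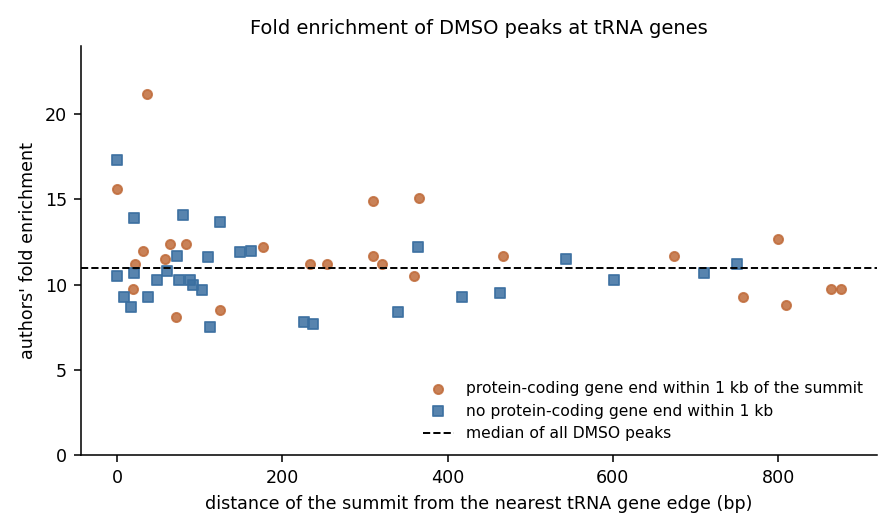
The authors' fold enrichment (vertical axis) of the 55 DMSO peaks at tRNA genes against the distance in bp of the summit from the nearest tRNA gene edge (horizontal axis), marked by whether a protein-coding gene end lay within 1 kb of the summit; the dashed line is the median of all DMSO peaks, 10.99. Most points lie between 7.55 and 15.6, and the highest, 21.2, is 36 bp from n-TAagc15.

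The peak of highest fold lay at a pair of tRNA genes for tyrosine and alanine. n-TYgta9 (chromosome 5, 30888083 to 30888171) and n-TAagc15 (30888515 to 30888587) lay under a peak from 30886436 to 30890847 with a fold of 21.2 and 87 fragments, rank 108 in the list. Its summit was 36 bp from n-TAagc15 and 16 bp from an end of Agbl5, a gene of a tubulin-modifying carboxypeptidase, so a tRNA gene and a coding gene end were both within its reach.

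The next peak had no protein-coding end near it. On chromosome 19 a peak from 12004135 to 12013133, 8999 bp wide, covered 7 tRNA genes, the most under any of the 55 and equalled by a peak near Aurkb on chromosome 11. Its fold was 17.3 (70 fragments, rank 450), and its summit lay inside the valine gene n-TVtac1 (12011931 to 12012003), within 1 kb of n-TVtac2, n-TRtct1 and n-TLtaa4. Osbp, which encodes a sterol-binding protein, was the closest protein-coding gene, with its end 17818 bp away. This cluster of 8 tRNA genes for 5 amino acids held a summit within 1 kb of 4 of its members.

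Other strong peaks of this kind lay at small groups of tRNA genes or at a lone gene. On chromosome 3 a peak at 19626599 to 19630555 had a fold of 14.1 and covered n-TRacg3, n-TYgta1, n-TYgta2 and n-TAagc14, with the summit 80 bp from n-TYgta1. On chromosome 7 the proline genes n-TPtgg8 and n-TPagg7 shared a peak with a fold of 13.9, its summit 20 bp from n-TPagg7. The glutamine gene n-TQttg6 on chromosome 11, with no other tRNA gene within 10 kb, had a peak with a fold of 13.7, with the summit 125 bp away. In all 3 cases protein-coding gene ends were over 4 kb from the summit, but at n-TPagg7 and n-TQttg6 the end of a long non-coding RNA gene was 364 and 230 bp from it.

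At coding gene ends the 4 highest folds, after that beside Agbl5, were at tRNA genes with no other within 10 kb. The methionine gene n-TMcat17 on chromosome 8 held the summit of a peak with a fold of 15.6, 369 bp from an end of Fbxo31, a ubiquitin ligase subunit gene. The alanine gene n-TAagc9 on chromosome 19 lay 365 bp from a summit with a fold of 15.1, itself 135 bp from an end of Ppp6r3, a phosphatase subunit gene. The arginine gene n-TRcct1 on chromosome 6 lay 310 bp from a summit with a fold of 14.9, and the glycine gene n-TGccc4 800 bp from a summit with a fold of 12.7, near Tia1, an RNA-binding protein gene. A fold of 12.4 was shared by a peak at n-TWcca2 and n-TDgtc16 beside Tmpo, which encodes a nuclear lamina protein, and by a peak at n-TRcct5, n-TRcct3 and n-TRtcg4 beside Mrpl58, a mitochondrial ribosome gene.

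The summits nearest to the middle of a tRNA gene spanned folds from 8.7 to 21.2 and included the 3 highest of the 55. The nearest was 18 bp from the centre of the leucine gene n-TLcag4 on chromosome 8, with a fold of 10.5. Those within n-TMcat17 and n-TVtac1, with folds of 15.6 and 17.3, were 32 and 35 bp from the centre. Then came n-TRtct2 (50 bp, fold 9.29), n-TRtcg5 (56 bp, fold 10.7), n-TPagg7 (56 bp, fold 13.9), n-TRacg2 (58 bp, fold 11.2), n-TLcag6 (60 bp, fold 9.77) and n-TIaat17 (63 bp, fold 8.7), with n-TSgct6 (fold 12) and n-TAagc15 (fold 21.2) both at 72 bp. At the limit of the region, the last summits inside lay 810 bp from n-TScga2, 864 bp from n-TCgca51 and 876 bp from n-TStga3, with folds of 8.8, 9.77 and 9.77. The first outside lay 1219 bp from n-TEctc7, 1311 bp from n-TVaac8 and 1394 bp from n-TVcac7, with folds of 8.3, 12.7 and 13.7.

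The summits were spread over most amino acids. Genes for 18 of 20 amino acids, and 37 of 48 anticodon families, had a member with a DMSO summit within 1 kb. By amino acid the largest numbers were 11 of 24 arginine genes (45.8%, interval 25.6 to 67.2%), 9 of 33 alanine genes (27.3%) and 9 of 26 leucine genes (34.6%). All 8 arginine genes with a protein-coding gene end within 2 kb had a summit, against 3 of 16 without such an end, while 7 of 30 alanine genes and 7 of 23 leucine genes without one had a summit. By anticodon they were 7 of 13 Ala-AGC genes, 6 of 16 Asp-GTC genes and 5 of 10 Leu-CAG genes, followed by 4 genes each of Glu-CTC (of 12), Tyr-GTA (of 10), Val-AAC (of 9) and Cys-GCA (of 57). The Ala-AGC genes with a summit had 7 separate peaks, and 5 of them had no protein-coding gene end within 2 kb.

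Lysine and threonine genes had none. Of 26 lysine genes on 12 chromosomes, 0 had a DMSO summit within 1 kb (interval 0 to 13.2%), and of 18 threonine genes 0 did (interval 0 to 18.5%). Between these and arginine stood glycine (8 of 28), valine (7 of 24), serine (6 of 22), glutamate (6 of 20), proline (6 of 17), aspartate (6 of 16), tyrosine (4 of 10), methionine (3 of 16), glutamine and isoleucine (2 of 16 each), tryptophan (2 of 8), asparagine (1 of 13), histidine (1 of 11) and phenylalanine (1 of 7). With counts this small most of these intervals overlap, so the order among amino acids is a description of this list.

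**Figure D5:**
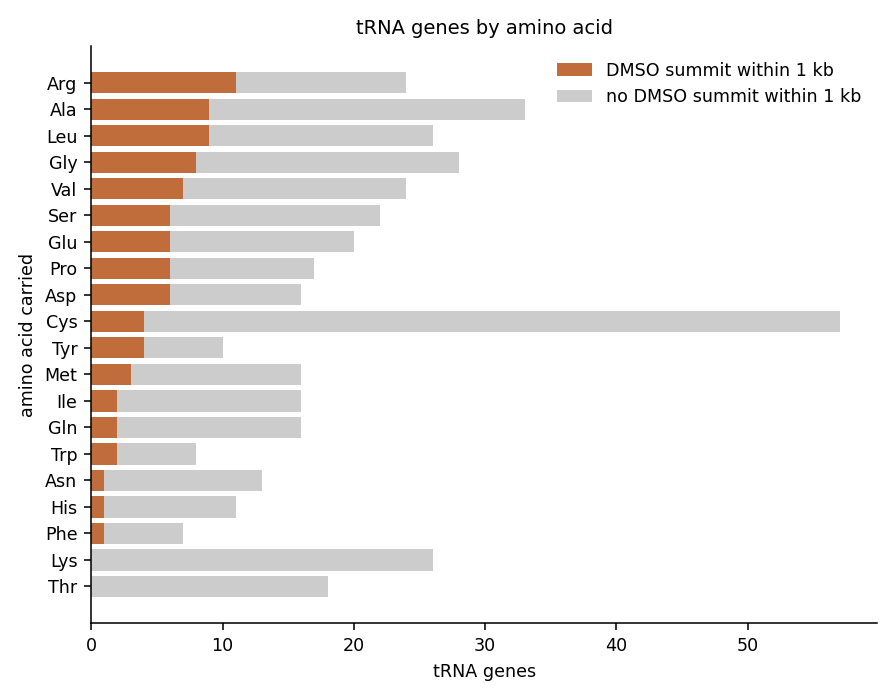
Number of tRNA genes (horizontal axis) by amino acid carried (vertical axis), split into genes with a DMSO summit in the gene or within 1 kb and genes without one. Arginine has 11 of 24 genes with a summit, cysteine 4 of 57, and lysine and threonine 0.

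Cysteine genes made up the largest family and held few summits. All 57 have the anticodon GCA, and 49 of them lie together on chromosome 6, in clusters that include 1 of 22 genes (48244316 to 48317586), 1 of 10 genes (48332840 to 48363603) and 1 of 9 genes (48133937 to 48164172). None of the 49 had a DMSO summit within 1 kb. The 4 cysteine genes that did lie elsewhere: n-TCgca51, n-TCgca54 and n-TCgca55 on chromosome 11 and n-TCgca52 on chromosome 17. Without cysteine genes the share of tRNA genes with a DMSO summit was 23.9% (84 of 351).

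The cysteine cluster of chromosome 6 held the only treated summit at a tRNA gene. It lay 56 bp from n-TCgca15 (48253080 to 48253151), in a peak of 110 bp from 48253158 to 48253267 with a fold of 5 and 47 fragments. The caller's background there was 3.33 fragments, 1.48 times the floor of the treated list. Thus 1 of 408 tRNA genes (0.245%, interval 0.00621 to 1.36%) had a treated summit within 1 kb, beside 0.661% of all RefSeq genes (0.664% with tRNA genes left out) and 0.112% of the other short genes. The next treated summits were 4865 bp from n-TGccc4 and 5692 bp from n-TEctc5. Of the 55 DMSO peaks at tRNA genes, 0 overlapped a treated peak, beside 2.9% of the whole DMSO list (187 peaks). The treated list is far shorter and reaches down to weaker peaks than the DMSO list, so these numbers do not measure a change at tRNA genes.

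Clustering was common among tRNA genes, and large clusters were not richer in summits per gene. With neighbours at most 10 kb apart joined, the 408 genes formed 111 single genes and 65 clusters of 2 or more. A DMSO summit lay within 1 kb of 27 of the single genes (24.3%, interval 16.7 to 33.4%) and of a member of 23 of the 65 clusters (35.4%, interval 23.9 to 48.2%). Counted by gene, the share was 27.8% in clusters of 2 to 4 genes, 20.4% in clusters of 5 to 9 and 11.6% in the 6 clusters of 10 or more. Of those 6, 4 had no DMSO summit within 1 kb of any member: both large cysteine clusters, and clusters of 15 genes (21907111 to 21940995) and 10 genes (21234045 to 21279768) on chromosome 13. The fifth, of 14 genes on chromosome 13 (23425646 to 23453514), had a summit at 1 gene, the tyrosine gene n-TYgta7, with a fold of 9.29.

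Chromosomes differed widely. Chromosome 13, where tRNA genes lie among the replication-dependent histone genes, had 105 tRNA genes and 10 with a DMSO summit (9.52%). Chromosome 11 had 52 and 19 (36.5%), and 24 of its 52 genes had a protein-coding gene end within 2 kb, against 3 of 105 on chromosome 13. Its cluster of 4 genes from 8361 to 11797 had the nearest DMSO summit 3112082 bp away. That cluster has the span (3.44 kb) and anticodon families of another, from 48853619 to 48857055. Whether reads could be placed at the former was not tested. The 4 genes there and the valine gene Trnav-cac are the 5 tRNA genes not named in the n-T pattern. Trnav-cac, from 1440395 on chromosome 11, had its nearest DMSO summit 1683412 bp away. All 5 are counted here among the genes without a DMSO summit. Chromosome 5 had 8 of 10. Its cluster from 125404250 to 125409543 was covered in full, with all 5 members within 1 kb of a DMSO summit under a pair of peaks with folds of 11.5 and 10.3. On X, 0 of 17 tRNA genes had a DMSO summit within 1 kb. Most of these 17 are alanine genes that lie together from 136357602 to 136590436.

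The sixth large cluster, on chromosome 1, had peaks of another shape. It holds 15 genes from 171064164 to 171081946, for 4 amino acids, and 9 of them had a DMSO summit within 1 kb. Its 5 peaks were 153 to 342 bp wide, and they were the only ones of the 55 under 500 bp, a width that 2.84% of all DMSO peaks had. Folds ran from 7.55 to 11.9.

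The genes of this cluster recur at regular distances. The glycine genes n-TGgcc12, n-TGgcc13 and n-TGgcc14 start 7671 and 7574 bp apart. A DMSO summit lay beside each copy, 149 bp from n-TGgcc13 and 92 bp from n-TGgcc14. Near the first copy the nearest summit, with a fold of 11.2, lay between n-TGgcc12 and the leucine gene n-TLcag6 and was 234 bp from the latter. A further narrow peak, 142 bp wide, lay 1219 bp from the glutamate gene n-TEctc7, just beyond the 1 kb limit. The caller's background at the cluster's peaks ran from 2.32 to 5.0 fragments, or 1.0 to 2.16 times its floor. The sources used here do not give how reads that match several copies were placed, and its part in the width of these peaks, or in the lack of summits at other repeated tRNA genes, was not tested.

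The genes whose products make and use tRNAs were looked at for comparison. Among protein-coding genes at large, 19.5% had a DMSO summit within 1 kb of either end. Of 18 RNA polymerase III subunit genes 6 did (33.3%, interval 13.3 to 59%), of 17 genes for its factors 6 (35.3%, interval 14.2 to 61.7%), of 30 genes for tRNA processing and export 9 (30%, interval 14.7 to 49.4%), and of 23 genes for cytosolic tRNA synthetases and their partners 10 (43.5%, interval 23.2 to 65.5%). Only the last interval lies above 19.5%, and these lists are a description. Of 11 other genes that RNA polymerase III transcribes, none of them protein-coding, 4 had a DMSO summit within 1 kb (36.4%, interval 10.9 to 69.2%). That interval reaches the 12.9% over all RefSeq genes, most of them far longer than tRNA genes. It lies above the 3.44% of snoRNA, miRNA and snRNA genes, a class that also holds Rn7sk and Rnu6 of the 11. With so few genes this list too is a description. The 4 were Rn7sk, which limits elongation by RNA polymerase II, Rn7s1 and Rn7s2, of the signal recognition particle, and Rmrp, the RNA of RNase MRP.

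The highest folds in these lists were at regulators and enzymes of several steps. Maf1, the repressor of RNA polymerase III, had a fold of 20.5, and Brf1, the TFIIIB subunit, 15.1. Polr1d, a subunit shared with RNA polymerase I, had 16.8, and Polr2h, shared by the nuclear RNA polymerases, 15.8. Among processing genes, Pop7 and Rpp38, subunits of RNase P, had 18.4 and 15.6, Nsun2, a tRNA methyltransferase, 16.8, and Tsen54, of the splicing endonuclease, 13.2. Vars and Yars, the valine and tyrosine synthetases, had 19.7 and 17.5, Aimp2, a scaffold of the synthetase complex, 14.6, and Rmrp 12.2. A treated summit lay within 1 kb of an end of Polr1d (fold 4.6) and Pop7 (fold 4.42) alone among the 99 genes matched, beside 0.685% of protein-coding genes.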

How the data were processed

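DNA ends were mapped in 6 samples, 2 pull-downs and 1 input per condition. Per the submitters' processing notes, the build was mm10 and the tools included STAR 2.5.2a, Picard 1.141, SAMtools 0.1.19 and MACS2 2.1.0, with roles and settings not given in the sources used here. The deposited peak lists were pooled by the authors, per the peak names, so replicates could not be compared. Each deposited peak has a fold enrichment (a ratio), a −log10 p and a −log10 q at the summit, and a score that equals the whole part of 10 times the −log10 p, all from the authors' caller.

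Gene positions came from RefSeq GRCm38.p6, the assembly of mm10, without strand. Of its tRNA genes, 22 mitochondrial ones were left out. Amino acid and anticodon were read from gene symbols, and n-Tcgca44 was read as a cysteine gene. The summit was taken as peak start plus offset, counted from 1. Pull-down coverage and the background it was set against were recovered by inverting the caller's fold and Poisson p. Pull-down was scaled by 0.805 for DMSO and 0.439 for treated cells. The inversion solved 100% of peaks, with pull-down within 0.025 of a whole fragment, and was tested on simulated data. The recovered background has a floor in each list, so it is not the input coverage at the summit. Total read depth is unknown. The least coverage of a listed peak was 35 fragments in both lists. Shares have exact Clopper-Pearson intervals at 95%. No test was run, as there are no values per sample.

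The members and gene lists were chosen with earlier results of these data known. Named tRNA genes were all those with a treated summit, those at the DMSO summits of highest fold until 20 genes were reached (22 with a tie), those at the 10 summits nearest a gene centre, the 6 largest clusters, and the summits either side of the 1 kb limit. The chromosome 1 cluster and the cysteine genes were described further after their values were seen. Alternatives changed the flank, the peak threshold, the overlap rule, the distance to coding genes and the cluster gap. Of 101 pathway gene names, 99 matched. The software was pandas 2.3.3, SciPy 1.17.1, NumPy 2.4.6, matplotlib 3.10.9 and Python 3.11.15.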

Additional observations from a re-analysis of the deposited data

How the results depend on the processing

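The count of tRNA genes with a DMSO summit (88), of DMSO peaks at tRNA genes (55) and of tRNA genes with a treated summit (1) depended mainly on the flank and the peak threshold. With no flank they were 3, 3 and 0, and with 10 kb they were 156, 87 and 10. With 2 kb and 5 kb the treated count was 2 and 3. With folds at or above the list median the counts were 51, 28 and 0. With −log10 q of at least 30 the DMSO counts were 29 and 16. Among tRNA genes with no protein-coding gene end within 2 kb they were 51 and 27, and within 5 kb 42 and 23, in part because fewer genes were counted. With any overlap of the peak the treated count was 2, and without cysteine genes, an alternative chosen after seeing the data, it was 0. The remaining alternatives, among them leaving out the chromosome 1 cluster or the dense region of chromosome 15, which holds 0 tRNA genes, kept each count within 1.5 times, and the 50 of 176 clusters and single genes with a DMSO summit became 53 of 270 or 45 of 132 with gaps of 2 or 50 kb. No paired analysis was possible because the deposited lists pool the replicates, and for the same reason leaving out a replicate was not run. Weak sites are not seen, since every listed peak had at least 35 fragments, so a tRNA gene without a summit is not shown to lack ends.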
